A study of Macaca mulatta with 48 samples.

Results

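Peritubular myoid cells are flat, contractile cells that wrap the seminiferous tubule, share a basement membrane with the Sertoli cells inside it and move sperm along by slow waves of contraction. They carry the smooth muscle machinery of actin, myosin, tropomyosin and calponin, and they secrete matrix and growth factors that reach the spermatogonia. Smooth muscle cells and pericytes of the testicular vessels use the same contractile genes, and calcium entry, cyclic GMP and phosphodiesterases set the tone of both.

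The cells described here were the barcodes chosen by 3 genes of that machinery in testis libraries of 6 male rhesus monkeys (Macaca mulatta). A cell had at least 1 unique molecular identifier (UMI, 1 captured RNA molecule) of at least 2 of ACTA2 (smooth muscle actin), MYH11 (smooth muscle myosin heavy chain) and TAGLN (transgelin, an actin-binding protein). It had no UMI of the endothelial genes EMCN and VWF or of AMH, the Sertoli cell hormone, and under 5% of its UMIs came from PRM1, PRM2 and TNP1, which package spermatid DNA. These 9 genes fixed the membership, so their values are a description without a test, and so is every contrast of these cells with the rest. In all, 2403 of 112150 cells (2.14%) met the rule.

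The animals were prepubertal (1 year), adult (6 years) or aged (22 years), with 2 animals per age. The testes of an animal were removed separately, 1 outside the breeding season (August) and 1 during it (December), so season cannot be told apart from month or from the order of removal. Whole testis had been minced, digested with type IV collagenase and strained. The labels list 48 samples and name none of the 12 matrices, so the age, season and animal of each matrix were read from the library sheet of the study's supplement, which calls the youngest group pubertal where the labels say prepubertal. Libraries are named here by age, season and animal 1 or 2.

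The libraries held 959819 to 43405583 UMIs. The breeding library of adult animal 2 stood apart, with 117 cells, of which 0 met the rule (3 counts of 117 is the limit that a count of 0 allows, a share of up to 2.56%, and the Wilson interval reaches 3.18%), so the adult breeding group had a single library. The chosen cells of the other 11 libraries had a median of 776 to 2153 UMIs and 4389515 UMIs together. Predicted doublets made up 206 of the 2403 cells (8.57%), against 8.39% of all cells. Of the chosen cells, 58 had a barcode found in another library too, and 0 were chosen in 2 libraries.

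All 3 marker genes were present in 1178 of the 2403 cells and exactly 2 of them in 1225, while another 4126 cells had exactly 1 and were not chosen. The cells had a median of 6 UMIs of the 3 genes together (quartiles 3 and 12), and 360 (14.98%) stood at the limit with 2 UMIs. ACTA2 was present in 91.6% of the chosen cells, MYH11 in 82.5% and TAGLN in 74.9%.

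Beside the genes of the rule, contractile and matrix genes led the difference from all other cells. Levels are given here in CPM, the UMIs of a gene per 1000000 UMIs of the chosen cells in a library or animal. As a median over the 11 libraries, tropomyosin TPM2 was higher by 4.85 on the log2 scale (range 2.88 to 6.27), IGFBP7, a secreted binder of insulin-like growth factors, by 4.58, the proteoglycan decorin (DCN) by 4.25, matrix Gla protein (MGP) by 4.17, SMOC2, a secreted matrix-associated protein, by 3.87, and the actin-binding caldesmon (CALD1) by 3.75. The laminin chain LAMA2 (3.72), the nuclear receptor NR2F2 (3.69) and PRKG1, the kinase that cyclic GMP activates in smooth muscle (3.60), followed. Each of these was higher in 11 of 11 libraries. COL4A3, a type IV collagen chain, was among the 30 leading genes with a median of 3.34 but was higher in only 8 of 11 libraries (range -0.98 to 4.08). Of the measured contractile genes 33 of 38 had a median above 0, as did 33 of 35 genes of fibrillar and interstitial matrix and 24 of 28 of the basement membrane, beside 3604 of the 6684 genes with a UMI in at least 5% of the chosen cells, a filter that the lists did not pass through. So did 15 of 16 interstitial fibroblast genes, with a median over the list of 2.21, and 11 of 11 myoid genes outside the rule (1.49). Summed, the fibroblast list held 35.0 to 91.4 UMIs per 10000 of the chosen cells and the myoid list 9.02 to 22.7. These sums do not compare the 2 cell types. The myoid sum leaves out ACTA2, MYH11 and TAGLN (means of 2514, 1195 and 1518 CPM), while the fibroblast sum holds DCN (2484 CPM). None of 11 Sertoli cell genes and none of 11 T and NK cell genes had a median above 0. The summed Sertoli list was nonetheless higher in the chosen than in the other cells of the 4 aged libraries (2.26 to 8.24 against 1.75 to 5.33 UMIs per 10000).

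Serum response factor drives many contractile genes through a short DNA element called the CArG box. It is read here as 2 C, then 6 bases that are each A or T, then 2 G, with no mismatch allowed. It was searched on both strands of the 250 bases before the annotated start of each gene in the RefSeq annotation of Mmul_10, the assembly used by the authors. It was found for 213 of 20787 genes (1.02%) and for 2 of the 30 leading genes. The stretches of TAGLN and of ACTG2, the enteric form of smooth muscle actin, are shown because these genes belong to the rule and to the contractile list, with the CArG boxes in capitals, 5′ to 3′ on the strand of the gene. The same window of ACTA2 and MYH11, the other genes of the rule, and of CALD1, CNN1, DES, LMOD1, PDLIM3 and TPM2 held no exact match, which leaves boxes with a mismatch uncounted. The TAGLN stretch lies at chr14:110259925-110259974 (plus strand) and the ACTG2 stretch at chr13:34939372-34939442 (minus strand).
TAGLN: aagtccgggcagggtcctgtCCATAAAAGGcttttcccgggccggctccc
ACTG2: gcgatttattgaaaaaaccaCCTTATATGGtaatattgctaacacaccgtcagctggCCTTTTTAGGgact

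The label of the cells was borne out only in part. Reclustered without the 9 genes, the 2403 cells fell into 12 sub-clusters. Cluster 3 (315 cells) and cluster 10 (214 cells) were smooth muscle-like, with CNN1 (calponin), the filament protein DES and LMOD1 raised. These genes were also raised in the vascular-like cluster 2, so they do not separate myoid from vascular cells. In cluster 3 FRZB of the vascular list, the fibroblast gene DPT and PDGFRA, which is on the myoid and fibroblast lists, were raised too. The stress-responsive genes GADD45B and JUN were among its leading genes, and aged animal 2 outside the breeding season supplied 93.0% of it. Cluster 10 was myoid-like, since it also had the myoid genes DPEP1, PTCH1, ACTG2 and ITGA9 raised. Beside them FRZB and NTRK3 of the vascular list and 6 spermatid genes (PRM1, PRM2, TNP1, ODF1, AKAP4 and GAPDHS) were raised. Cluster 2 (115 cells) was like vascular smooth muscle, led by RERGL, and 58.3% of its cells had at least 2 of RGS5, NOTCH3, MCAM and RERGL. Cluster 6 (98 cells) was pericyte-like, with RGS5, HIGD1B, ABCC9 and COX4I2. Spermatid genes such as PRM1 and TNP2 and the haemoglobin genes HBA and HBE1 were raised in it too. Aged animal 1 outside the breeding season supplied 70.4% of its cells.

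Other clusters carried the 3 marker genes beside genes of other cells. Cluster 0 (266 cells, 260 of them prepubertal) was fibroblast-like, with DLK1, COL1A1, COL1A2, TCF21, C7, DPT and OGN, and had a median of 3 UMIs of the marker genes. The immediate early genes NR4A3, FOS and NR4A2 were among its 10 leading genes. Cluster 11 (498 cells, 79.5% from aged animal 1 outside the breeding season) stayed unnamed. Fibroblast genes such as PI16 and LUM were raised in it, but the immunoglobulin gene IGKC led it and the haemoglobin genes HBA and HBE1 were also among its 10 leading genes, and it had a median of 4.5 marker UMIs. Cluster 1 (450 cells, 70.9% from the non-breeding library of adult animal 1) stayed unnamed, because the Sertoli cell genes CST9L and FATE1 led it while the myoid genes ACTG2, PTCH1 and DPEP1 and the connective tissue genes DCN, COL1A1, COL1A2, COL3A1 and PDGFRB were also raised, with ELN among its 10 leading genes. It had a median of 10 marker UMIs, and 41 of its cells were prepubertal, 392 adult and 17 aged. Cluster 4 (303 cells) was germ cell-like and 50.5% of it were predicted doublets. Cluster 8 (86 cells) was T and NK cell-like, with 97.7% of its cells from aged animal 1 outside the breeding season. The remaining clusters 5, 7 and 9 held 13, 28 and 17 cells.

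**Figure D1:**
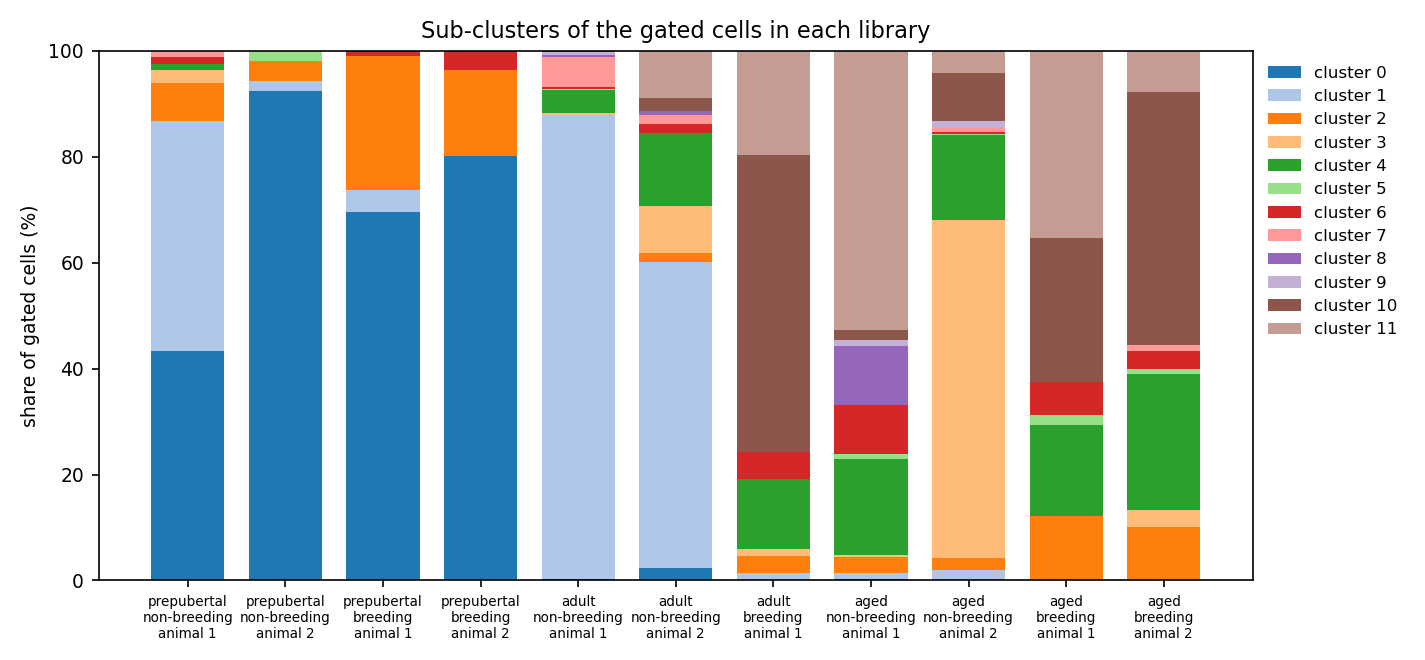
Share of the gated cells of each library (y axis, %) that fell in each of 12 sub-clusters (colours), for the 11 libraries with gated cells (x axis). Cluster 0 filled 43.4% to 92.5% of the prepubertal cells, cluster 1 made up 87.6% and 57.7% of the adult non-breeding cells, and clusters 3, 10 and 11 held most of the aged cells.

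Different clusters therefore held most of the cells at each age, and the levels below compare those mixtures. Cluster 0 held 43.4% to 92.5% of the cells of each prepubertal library. In the non-breeding library of prepubertal animal 1, cluster 1 held another 43.4%, against 0% to 4.21% in the other prepubertal libraries. Among adult libraries cluster 1 held 87.6% and 57.7% of the cells in the non-breeding season and 1.32% in the breeding season, where cluster 10 held 55.9%. In bulk sums of such cells, fewer cells of a type and less RNA per cell cannot be told apart.

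The share of chosen cells among all cells was 0.793% and 0.467% outside the breeding season in prepubertal animals 1 and 2, and stood at 1.32% and 1.37% during it. Adult animals went from 3.94% and 1.19% to 1.62% and 0%. Aged animals went from 5.83% and 3.49% to 1.34% and 0.834%. Both prepubertal animals thus had the higher share in the breeding season, and adult animal 1 and both aged animals in the non-breeding season. Without the rule on AMH prepubertal animal 1 turned, with a log2 difference of -0.21, breeding minus non-breeding. The direction in adult animal 2 is not known, since the limit of 2.56% lies above its 1.19%. Over 6 animals the paired log2 difference, breeding minus non-breeding, was -0.78 ± 1.54 (SD), and an exact two-sided sign-flip permutation test gave p = 0.3125 (smallest possible 0.03125). Shares entered with 0.5 added to the chosen cells and 1 to the total, and the value of -1.50 that this gives for adult animal 2 is no measurement of a change. Without that animal the difference was -0.64 ± 1.68 (SD, n = 5) and p = 0.5 (same exact test, smallest possible 0.0625).

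**Figure D2:**
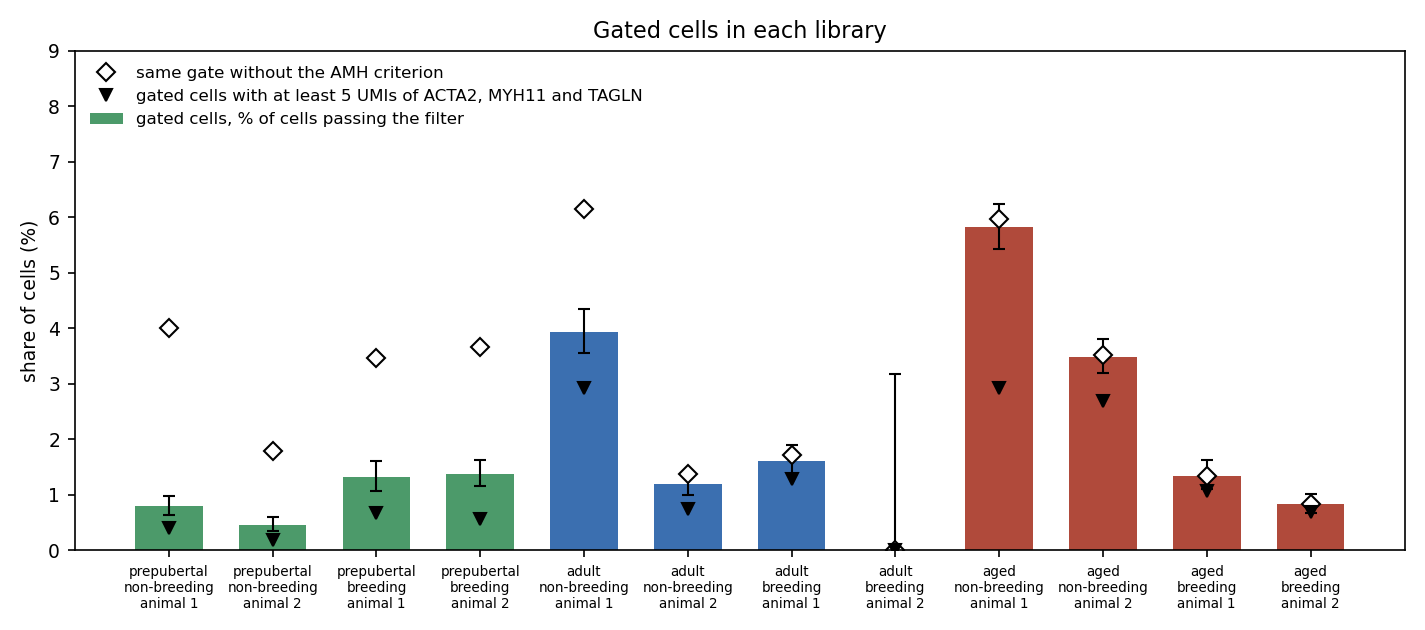
Share of cells in the gate (bars, % of cells passing the filter, with 95% Wilson intervals for counting error), without the AMH criterion (diamonds) and with at least 5 UMIs of the 3 marker genes (triangles), in each of 12 libraries (x axis). Prepubertal shares were 0.467% to 1.37% with and 1.79% to 4.003% without the AMH criterion, while in aged libraries both symbols nearly coincide.

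With both seasons summed, the share was 1.01% and 0.890% in prepubertal, 2.77% and 1.18% in adult and 4.19% and 2.29% in aged animals. Prepubertal animals lay below the others, adult and aged animals overlapped, and the exact permutation test over the 6 animals gave p = 0.267, where the smallest possible was 0.0667. The order depended on the rule. AMH was present in 85.0% to 95.1% of all prepubertal cells, and without the AMH criterion the prepubertal libraries held 4.003%, 1.79%, 3.47% and 3.67%. The mean log2 share was then lower in adult than in prepubertal animals by -0.457, and aged minus adult was 0.442 (p = 0.867, same exact test). Prepubertal and aged means thus nearly coincided. The non-breeding libraries of adult animal 1 (6.15%) and aged animal 1 (5.97%) lay above every prepubertal one. With cells thinned to 1000 UMIs the adult mean was the highest by a small margin, with aged minus adult at -0.059 (p = 0.8, same exact test).

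A share of cells with 2 marker genes also appeared where these genes should be absent. In spermatid barcodes of adult and aged libraries 0.492% to 5.44% had at least 2 of the 3 genes, in barcodes with AMH 0.699% to 6.97% in every library with over 100 such barcodes, and in barcodes with the leukocyte gene PTPRC 0% to 5.40%. Median depths were 1865 to 3573 UMIs in the spermatid barcodes of the 7 larger libraries. These maxima belonged to aged animal 1 outside the breeding season, whose own share of chosen cells, 5.83%, lay above the values of its spermatid (5.44%) and PTPRC barcodes (5.40%) and below that of its AMH barcodes (6.97%). In 3 other adult and aged libraries that held chosen cells the share of chosen cells also lay below at least 1 of these values, with 3.94% against 4.04% of AMH barcodes in adult animal 1 outside the breeding season (10.0% of its barcodes without AMH were chosen), 1.34% against 1.87% of PTPRC barcodes (2 of 107) in aged animal 1 during it, and 0.834% against 2.12% of spermatid barcodes in aged animal 2 during it. These shares count all cells of a library, of which those with AMH could not be chosen. Among the barcodes without AMH 7.83%, 9.57%, 8.80% and 11.8% were chosen in the prepubertal libraries (non-breeding animals 1 and 2, breeding animals 1 and 2), above the 3.89%, 1.49%, 2.72% and 2.78% of barcodes with AMH and the 2.78%, 0.786%, 2.12% and 2.07% of those with PTPRC that had at least 2 of the genes. On that denominator the share lay below at least 1 of these values in 3 of the 11 libraries with chosen cells, all aged, namely animal 1 in both seasons (6.02% and 1.36%) and animal 2 in the breeding season (0.850%). The chosen cells of aged animal 1 outside the breeding season held 29.3 UMIs of the 3 genes per 10000, against 53.8 to 102 in the other adult and aged libraries and 18.1 to 32.9 in the prepubertal ones, and 83 of its 750 chosen cells had a PTPRC UMI. With at least 5 UMIs of the 3 genes required, its share was 2.93%.

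Levels of genes were compared on UMI counts summed over the chosen cells of an animal (age) or a library (season) with the quasi-likelihood test of edgeR, with Benjamini-Hochberg adjustment over all genes tested and a threshold of 0.05. The 9 genes of the rule were left out of all counts, while the mitochondrial genes that the filter on cells used were not. Adults differed from prepubertal animals most. Among 9867 genes 1353 passed (13.7%), 1129 higher in adults (11.4%) and 224 lower (2.27%), with a median over all genes of 0.21 on the log2 scale.

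Germ cell genes had the largest increases in adults. The 10 with the largest change, all at 0 in prepubertal animals, included RNF151, at least 59.9-fold higher, GSG1, at least 66.1-fold higher, and MS4A5, at least 33.3-fold higher, computed against 3 UMIs over the group. H1-7, GTSF1L, IQCF1, TSSK2, SH3RF2, IRGC and CCDC70 were the others. Of 11 spermatid genes 10 passed, all higher (median 6.29), and of 10 genes of spermatogonia and spermatocytes 7 passed, all higher (median 3.18). Of all genes 11.4% were higher. The summed spermatid genes held 0.17 to 2.14 UMIs per 10000 in the chosen cells of prepubertal libraries and 5.82 to 91.2 in those of adult ones. Of the 1129 genes higher in adults 90.6% were higher in the other adult cells than in the chosen ones, against 19.2% of the 224 lower genes and 42.5% of all genes tested. The part of germ cell RNA in these differences cannot be told apart from age here, since prepubertal testes held almost no spermatid barcodes.

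Among genes that set the tone of smooth muscle, 6 of 18 tested for vasoactive receptors, ion channels and relaxation passed, all lower in adults and none higher (2.27% and 11.4% of all genes), and the list had a median of -1.41. Vascular cells also differed between these ages, since cluster 2 held 54 of 367 prepubertal and 7 of 639 adult cells. Of the 8 vascular smooth muscle and pericyte genes tested only RERGL passed, lower in adults (median -0.38), and the summed vascular list held 2.40 to 14.6 UMIs per 10000 in prepubertal and 4.06 to 10.6 in adult libraries. PRKG1 had 2497 and 3208 CPM in prepubertal animals 1 and 2, 939.9 and 708 CPM in adults and 739 and 631 CPM in aged animals. The adult difference was -1.68 (SE 0.33, adjusted p = 0.020, edgeR). PDE3A, a phosphodiesterase that cyclic GMP inhibits, had 199 and 404 CPM before puberty and 39.3 and 33.3 CPM in adults, a difference of -2.90 (SE 0.51, adjusted p = 0.016, edgeR). CACNB2, a subunit of voltage-gated calcium channels, had 169.98 and 252 CPM before puberty and 41.4 and 24.98 CPM in adults (-2.45, SE 0.40, adjusted p = 0.014, edgeR). The calcium release channel RYR2 was lower by a log2 difference of -1.49, the inositol trisphosphate receptor ITPR1 by -1.32 and PDE5A, which breaks down cyclic GMP, by -1.24. For all 6 genes no adult animal reached the level of a prepubertal animal. In adults CACNB2 (38.1 against 35.0 CPM) and RYR2 (107 against 99.3 CPM) stood close to their level in the other adult cells. PRKG1 (894 against 47.8 CPM), PDE3A (38.1 against 5.99), PDE5A (72.1 against 6.11) and ITPR1 (104 against 59.8) stood above it. ITPR1 and PDE5A no longer passed among cells with all 3 markers (adjusted p = 0.065 and 0.79, edgeR). Without the cells that had at least 2 of RGS5, NOTCH3, MCAM and RERGL, RYR2 (-1.19) and ITPR1 (-1.35) did not pass (adjusted p = 0.065 and 0.053, edgeR), and PRKG1 (-1.62), PDE3A (-2.57), CACNB2 (-1.94) and PDE5A (-1.33) did.

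Of 34 genes of the contractile apparatus 0 were higher and 4 lower in adults (11.4% and 2.27% of all genes), with a median of 0.16. The lower ones were the actin-associated scaffolds SORBS2 (135 and 128 CPM before puberty, 38.3 and 37.5 CPM in adults, log2 difference -1.69) and SYNPO2 (-1.62) and the LIM domain proteins CRIP1 (-2.49) and CSRP2 (-1.50). In adults SORBS2 was lower in the chosen than in the other cells (38.1 against 84.2 CPM), while SYNPO2, CRIP1 and CSRP2 were higher in the chosen ones. CRIP1 was a leading gene of the vascular-like cluster 2 (1121 CPM against 40.0 CPM in the other chosen cells). The part of this cluster, which held 54 prepubertal and 7 adult cells, was not tested. Among the genes of the rule, ACTA2 lay at 1099.5 to 2520.3 CPM in prepubertal and 2294 to 4208 CPM in adult libraries, as a description only.

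The type IV collagen genes COL4A3 and COL4A4 were higher in adults. These chains form, with COL4A5, a collagen network of specialised basement membranes. COL4A3 had 41.8, 0, 0 and 4.63 CPM in the prepubertal libraries (non-breeding animals 1 and 2, breeding animals 1 and 2), 138, 142 and 189 CPM in the adult ones and 69.6 to 163 CPM in the aged ones. COL4A4 had 68.0, 0, 6.67 and 4.63 CPM before puberty and 221, 125 and 111 CPM in adults. Only the non-breeding library of prepubertal animal 1, the one with 43.4% of its cells in cluster 1, came near the later levels, and its CST9L (141 CPM) and FATE1 (131 CPM) also stood above the 0 to 16.5 CPM of the other prepubertal libraries. The log2 differences were 3.55 for COL4A3 (SE 0.67, adjusted p = 0.019) and 2.96 for COL4A4 (SE 0.67, adjusted p = 0.029, edgeR). Other adult cells had 2.86 CPM of COL4A3 and 4.61 CPM of COL4A4, against 149 and 180 CPM in the chosen adult cells.

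The genes lie head to head on chromosome 12 of Mmul_10, COL4A4 at 114457002 to 114612826 on the minus strand and COL4A3 at 114612842 to 114761672 on the plus strand. The bases between their annotated starts, chr12:114612827-114612841, are shown on the plus strand because the pair moved together.
COL4A4 to COL4A3: agcctgggtggggag

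The rest of the basement membrane list did not follow this pair. Of 23 genes tested only COL15A1, a collagen at the outer face of basement membranes, also passed, beside 13.7% of all genes. It was lower in adults (264 and 299.8 CPM before puberty, 113 and 87.4 CPM in adults, log2 difference -1.36). It no longer passed with all 3 markers (adjusted p = 0.066, edgeR). COL4A5 had 179 and 214 CPM before puberty and 145 and 129 CPM in adults and did not pass (adjusted p = 0.39, edgeR). Of 32 genes of fibrillar and interstitial matrix none passed (median 0.35), the most abundant being DCN (log2 difference 0.10, which changed sign with another scaling) and TIMP1 (-0.30).

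**Figure D3:**
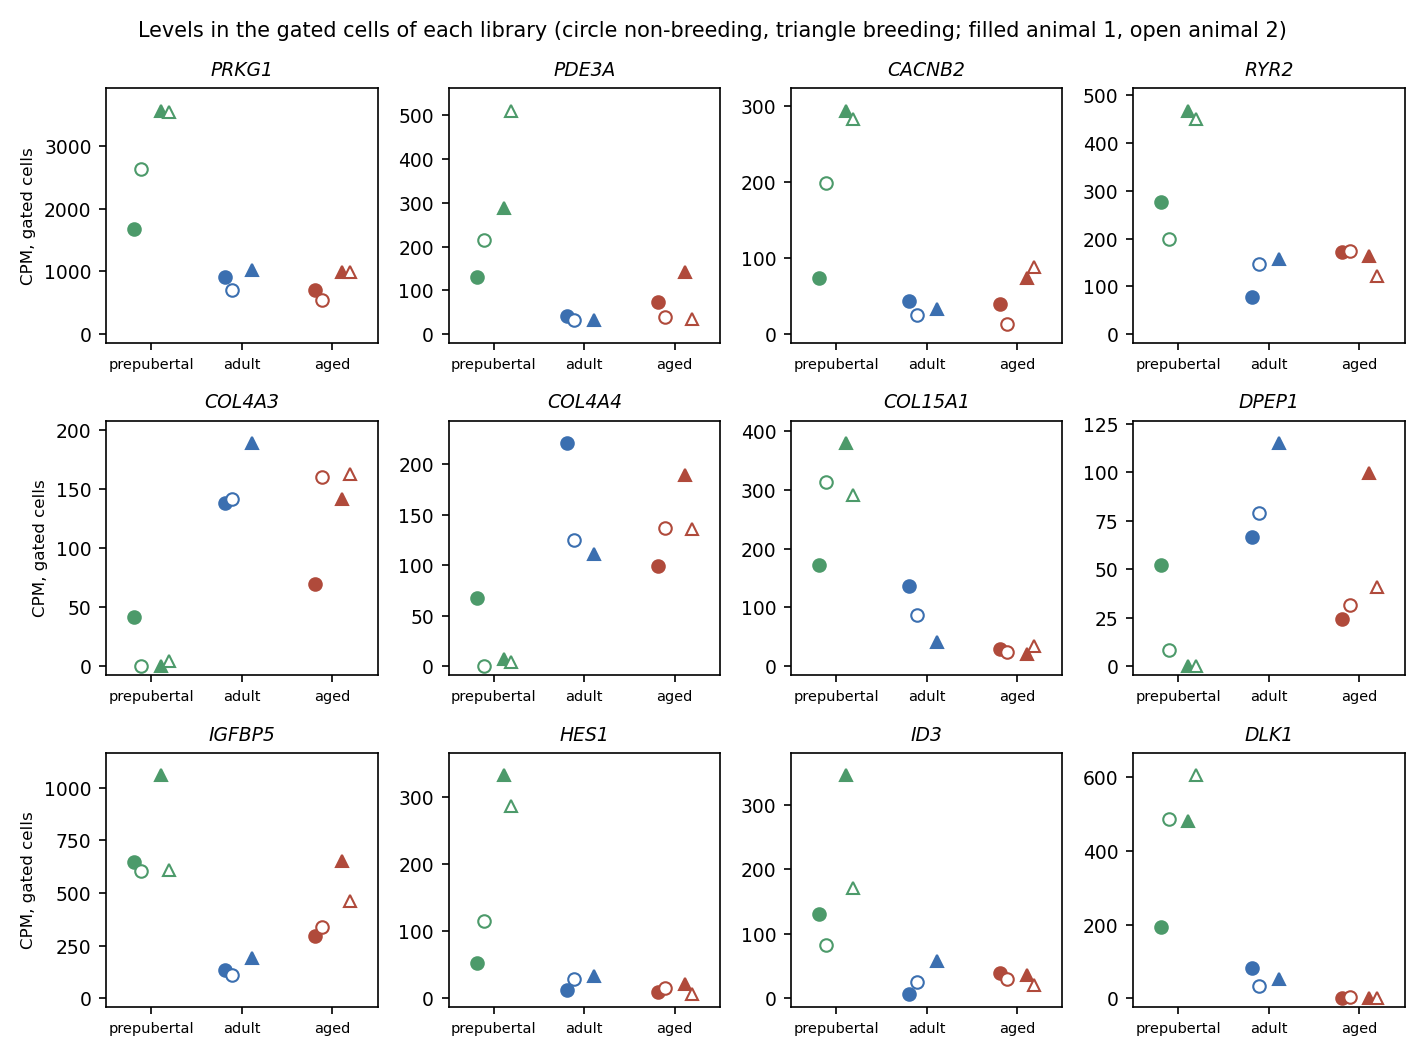
CPM in the gated cells of each of 11 libraries (y axis, linear, own scale per gene) by age (x axis), with circles for the non-breeding and triangles for the breeding season, filled for animal 1 and open for animal 2. PRKG1, PDE3A, CACNB2, RYR2, COL15A1, IGFBP5, HES1, ID3 and DLK1 were higher in each prepubertal library than in each adult one, and COL4A3, COL4A4 and DPEP1 lower.

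Among niche and growth factors 2 of 20 passed, beside 13.7% of all genes, and both were binders of insulin-like growth factors and lower in adults. IGFBP5 had 829 and 605 CPM in prepubertal, 149 and 112 CPM in adult and 334 and 362 CPM in aged animals, with a log2 difference of -2.34 between adult and prepubertal animals (SE 0.35, adjusted p = 0.012, edgeR). IGFBP3 had 193 and 53.4 CPM before puberty and 8.27 and 8.33 CPM in adults (-3.80). GDNF, the growth factor for spermatogonial stem cells, was at 0 to 4.63 CPM in all 11 libraries, too few UMIs to compare. PDGFC, a platelet-derived growth factor, was lower (-1.35). Estrogen receptors were lower as well, ESR1 with 90.9 and 178 CPM before puberty and 36.2 and 20.8 CPM in adults (-2.00) and ESR2 with 52.8 and 35.6 against 5.17 and 4.16 CPM (-3.04). ESR1 did not pass with all 3 markers (adjusted p = 0.21, edgeR). None of 8 genes of the hedgehog pathway passed, with PTCH1, the receptor and target of that pathway, at 149 and 172 CPM before puberty and 216 and 129 CPM in adults.

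In the list of the TGF-beta, activin and bone morphogenetic protein (BMP) pathway 5 of 19 passed, 4 of them lower and 1 higher in adults (2.27% and 11.4% of all genes). ID3, ID2 and ID1, which keep helix-loop-helix factors from binding DNA, and TGFBR3, a co-receptor, were lower (log2 differences -3.01, -2.25, -1.79 and -1.66). ID3 had 226 and 139 CPM before puberty and 19.6 and 24.98 CPM in adults (SE 0.44, adjusted p = 0.011, edgeR). BMP5 was at 0 UMIs in both prepubertal animals and at least 6.37-fold higher in adults. TGFBR3 did not pass with all 3 markers (adjusted p = 0.072, edgeR). Of 6 genes of the Notch pathway 1 was lower and 1 higher, beside the same shares of all genes. HES1, a Notch target, had 176 and 226 CPM before puberty and 17.6 and 29.1 CPM in adults (-3.14, SE 0.40, adjusted p = 0.010, edgeR), and HEY2, another Notch target, was higher (1.59). HEY2 did not pass with all 3 markers (adjusted p = 0.11, edgeR). BMP5 and HEY2 were more abundant in the other adult cells (59.9 and 156 CPM) than in the chosen ones (28.2 and 104 CPM).

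Immediate early genes, the first to be transcribed after a stimulus, had no member with a positive difference among 22 tested. Their median was -1.90, against 0.21 over all genes tested. NR4A3 (114 and 386 CPM before puberty, 6.20 and 8.33 CPM in adults, log2 difference -5.07), NR4A2 (-3.14), RRAD (-2.26) and MYC (-2.19) passed. Of all genes 2.27% were lower and 11.4% higher. RRAD was a leading gene of the vascular-like cluster 2 (678 CPM against 13.4 CPM in the other chosen cells), whose part was not tested. FOS had 3760.1 and 5414 CPM before puberty and 428 and 1149 CPM in adults but did not pass (adjusted p = 0.096, edgeR). NR4A3, NR4A2 and FOS were leading genes of cluster 0, which held 260 prepubertal and 4 adult cells, and the part of this cluster in these differences was not tested. The other genes with the largest decrease in adults were MAP3K7CL, DUSP2, IRF1, ANK3, HAPLN1, IL1RAPL2, RERGL and ADAMTS17. RERGL, a small GTPase-like gene of vascular smooth muscle, had 273 and 157 CPM before puberty, 16.5 and 12.5 CPM in adults and 53.5 and 60.2 CPM in aged animals (-3.71, SE 0.45, adjusted p = 0.0085, edgeR).

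Proliferation genes were higher in adults in 5 of 10 cases and lower in none (median 2.19), beside 11.4% and 2.27% of all genes. CCNB1 (4.21), TOP2A (3.83), BUB1 (3.65), BIRC5 (2.34) and CDK1 (2.04) passed. CCNB1 was at 156 CPM in the other adult cells and at 100.2 CPM in the chosen ones, and TOP2A at 122 and 140.0 CPM, so the part of cycling germ cells in these values was not tested. The cell cycle inhibitor CDKN2B was higher too (2.43).

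Markers of the cell types that the mixture could hold also differed. DPEP1, a dipeptidase used to mark myoid cells, had 52.3, 8.27, 0 and 0 CPM in the prepubertal libraries and 66.3, 79.1 and 115 CPM in the adult ones (log2 difference 2.36, SE 0.63, adjusted p = 0.042, edgeR), and other adult cells had 0.517 CPM. The summed myoid list, without the genes of the rule, held 19.9 to 22.7 UMIs per 10000 before puberty and 15.8 to 20.2 in adults. Of 16 fibroblast genes 4 were lower and none higher (median -0.27), beside 2.27% and 11.4% of all genes. DLK1 (-2.79), C7 (-1.98), DPT (-1.72) and TCF21 (-1.64) were lower in adults, and all but DLK1 failed with all 3 markers (adjusted p = 0.18, 0.17 and 0.25 for C7, DPT and TCF21, edgeR). Of 9 Sertoli cell genes tested 2 were higher and none lower (median 0.53), beside 11.4% and 2.27% of all genes. CST9L (3.73) and FATE1 (3.32) were higher in the chosen adult cells, at 501 and 419.9 CPM, and higher still in the other adult cells, at 985 and 705 CPM. Their part in the age differences was not tested.

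Adult animal 2 entered this comparison with 123 cells of the non-breeding season only. Of the named genes that had passed, 44 of 54 tested again passed with all 3 markers, 52 of 59 with at least 5 marker UMIs, 40 of 59 without predicted doublets, 46 of 59 without the cells marked by RGS5, NOTCH3, MCAM and RERGL, and 0 of 58 without the 1514 germ-rich cells (over 1% of UMIs from the spermatogonia, spermatocyte and spermatid lists), which left adult animal 2 with 30 cells. With prepubertal animal 1 or 2 left out 49 of 60 and 29 of 59 passed, and with adult animal 1 or 2 left out 29 of 58 and 32 of 60. None changed its direction in any of these, and log2 differences without those 1514 cells were -1.90 for PRKG1, -3.16 for HES1 and 3.41 for COL4A3.

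Between adult and aged animals no gene passed (0 of 9867, 0%, edgeR), with 426 higher (4.32%) and 454 lower (4.6%) in aged animals at an unadjusted p under 0.05. The lowest p values were those of ITLN1 (3.71), TTN (2.06), DOCK8 (2.65), ODF3L2 (2.21) and MX2 (3.12) among higher genes. Among lower genes they were those of INHA, an inhibin subunit made by Sertoli cells (-2.82), DLK1 (-4.92), CALB2 (-3.80), PLAC1 (-4.46) and PLA2G1B (-2.17), all given as not passing. ITLN1 was a leading gene of cluster 9, which had 2 adult and 15 aged cells, and their part was not tested. In the matrix lists, 7 of 32 fibrillar and interstitial genes and 6 of 23 basement membrane genes were lower at an unadjusted p under 0.05, beside 4.6% of all genes, with medians of -0.32 and -0.46 against 0.00 for all genes.

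Among the 1178 cells with all 3 markers the same comparison gave 745 higher (10.2%) and 308 lower genes (4.21%) of 7315. Of 30 fibrillar and interstitial genes 11 were lower in aged animals and 1 higher, with a median of -0.74 against -0.05 over all genes. In these cells COL1A1, the main fibrillar collagen, had 1039.7 and 863 CPM in adult animals and 207 and 116 CPM in aged animals (log2 difference -2.47, SE 0.38, adjusted p = 8.8e-04, edgeR). COL3A1 had 607 and 805 CPM in adults and 115 and 48.6 CPM in aged animals (-2.95, SE 0.39, adjusted p = 3.9e-04, edgeR). Elastin (ELN, -2.48), the proteoglycan versican (VCAN, -2.42), COL1A2 (-1.82), the matricellular CCN1 (-1.65) and CCN2 (-1.43), COL6A3 (-1.33), the gelatinase MMP2 (-1.32), fibrillin FBN1 (-1.07) and the protease inhibitor TIMP1 (-1.03) were also lower, and fibulin FBLN2 was higher (1.89).

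Of 23 basement membrane genes 7 were lower and none higher in the cells with all 3 markers (median -0.70), beside 4.21% and 10.2% of all genes. SPARC, a collagen-binding protein, had 896 and 1015 CPM in adults and 297 and 319 CPM in aged animals (-1.54, SE 0.33, adjusted p = 0.0059, edgeR). COL4A2 (-1.76), COL15A1 (-1.64), DAG1 (-1.30), COL4A1 (-1.21), the nidogen NID1 (-0.99) and the laminin chain LAMA4 (-0.85) were the others. COL4A3 (-0.63) and COL4A4 (-0.70), the pair that was higher in adults than before puberty, did not pass (adjusted p = 0.20 and 0.16, edgeR).

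Of 10 myoid markers tested, 3 were lower in aged animals in these cells (PTCH1, DPEP1 and ACTG2) and none higher, beside 4.21% and 10.2% of all genes. PTCH1 had 246 and 279.9 CPM in adults and 69.9 and 118 CPM in aged animals (-1.41, SE 0.30, adjusted p = 0.0064, edgeR). Its fellow hedgehog target HHIP (-1.32), ACTG2 (-1.15), DPEP1 (-1.20), the smooth muscle co-activator MYOCD (-0.97), PDLIM3 (-0.99), the endothelin receptor EDNRA (-0.88), the growth factors and modulators IGF2 (-1.57) and SFRP2 (-1.13), and PDGFRB (-1.19) were lower. SORBS2 (1.65), IGFBP5 (1.03) and RERGL (2.02) were higher in aged animals. Of these lower genes, COL1A1, COL1A2, COL3A1, ELN, PTCH1, DPEP1, ACTG2 and PDGFRB were raised in or led cluster 1, which held 392 of 639 adult and 17 of 1397 aged cells over all chosen cells, and its part in the result was not tested. Adult animal 2 had 59 cells with all 3 markers and the other adult and aged animals 324 to 344. With at least 5 marker UMIs instead, TIMP1, HHIP, EDNRA and PDGFRB did not pass (adjusted p = 0.106, 0.134, 0.145 and 0.145, edgeR). SPARC, PTCH1, IGF2 and RERGL did (adjusted p = 0.032, 0.040, 0.032 and 0.040, edgeR). Spermatid genes were higher in the same cells, 7 of 10 (median 1.35), and Sertoli cell genes lower, 4 of 6 (median -2.15), and their part in the result was not tested.

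**Figure D4:**
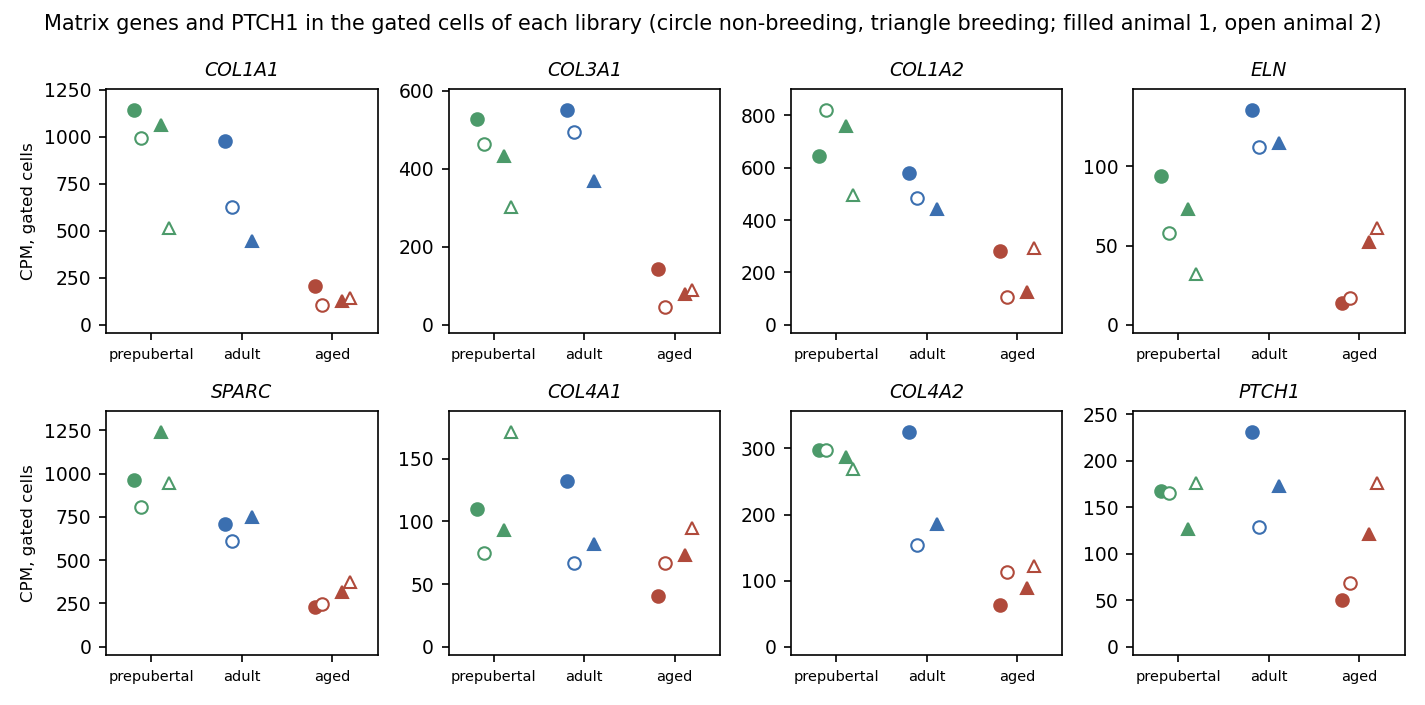
CPM in all gated cells of each of 11 libraries (y axis, linear, own scale per gene) by age (x axis), with circles for the non-breeding and triangles for the breeding season, filled for animal 1 and open for animal 2. COL1A1 lay at 444 to 978 CPM in the 3 adult and at 103 to 207 CPM in the 4 aged libraries, and COL3A1 at 369.9 to 549.9 and 44.95 to 144 CPM.

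No gene passed over all chosen cells, and the levels in their libraries are given for COL1A1 and PTCH1. COL1A1 had 978, 629 and 444 CPM in the adult libraries (non-breeding animals 1 and 2, breeding animal 1) and 207, 103, 126 and 143 CPM in the aged ones (non-breeding animals 1 and 2, breeding animals 1 and 2). The groups did not overlap, and the log2 difference between animals was -2.12 (SE 0.43, adjusted p = 0.44, edgeR). PTCH1 had 231, 129 and 173 CPM in adult and 50.5, 68.3, 121 and 176 CPM in aged libraries, which overlap.

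No gene passed between the seasons in the main fits, which did not use the pairing by animal. Among 8391 genes 0 passed in prepubertal (0%), adult (0%) and aged (0%) animals and 0 over all ages (0%, edgeR), where 287 were higher (3.42%) and 327 lower (3.9%) in the breeding season at an unadjusted p under 0.05. Over all ages the lowest p values among higher genes were those of the sodium-calcium exchanger SLC8A1 (2.09), RERGL (2.09), CSRP2 (1.39), TMEM51 and RNF150. Among lower genes they were those of LCN2 (-5.35), GFUS, ATP6, HSP90AA1 and TCF3. None passed, and ATP6 is one of the 13 mitochondrial genes that the filter on cells used, so its value is a description. LCN2 led cluster 9 (4557 CPM against 8.09 CPM in the other chosen cells). The 17 cells of this cluster came from the non-breeding libraries of adult animal 1 and aged animals 1 and 2, and their part was not tested. With the animal as replicate block 21 genes passed in aged animals, 188 in prepubertal animals and 0 over all ages. In adults this fit rests on the 2 libraries of animal 1 alone, so it has no replicate at that age.

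Of 10 genes of vascular smooth muscle and pericytes 7 were higher in the breeding season at an unadjusted p under 0.05 and 0 lower (median 1.57 against -0.04 over all genes), and none passed after adjustment. With the animal as replicate block 5 of the 10 were higher in adults (RERGL, RGS5, COX4I2, HIGD1B and FRZB, beside 9.9% of all genes), 2 in prepubertal animals (RERGL and MCAM, beside 0.644%) and 1 in aged animals (RERGL, beside 0.0953%), and 0 over all ages. The adult value under this block rests on animal 1, the one adult with chosen cells in both seasons, so the breeding arm has no replicate and the spread comes from the other groups. RERGL then had an adjusted p of 8.5e-04, 0.025 and 9.7e-07 in adult, prepubertal and aged animals and 0.30 over all ages (edgeR). RERGL had 167, 49.6, 4.14, 12.5, 35.1 and 29.97 CPM in the non-breeding libraries (prepubertal, adult and aged animals 1 and 2) and 407, 218, 53.4, 205 and 183 CPM in the breeding ones (prepubertal animals 1 and 2, adult animal 1, aged animals 1 and 2). It was higher in the breeding season in 5 of 5 animals with both libraries. MCAM, an adhesion molecule of vessel walls, went from 115, 49.6, 49.7, 43.4 and 71.6 CPM in those 5 animals to 307, 181, 103, 115 and 149 CPM (log2 difference 1.15, adjusted p = 0.53, edgeR). RGS5, a regulator of G protein signalling in pericytes, differed by 1.70 with the same adjusted p, and COX4I2, HIGD1B, HEYL and NTRK3 were the others. Of 34 contractile genes 7 were higher at an unadjusted p under 0.05 and 0 lower (median 0.38), and of 18 vasoactive genes 6 and 0 (median 0.64), beside 3.42% higher and 3.9% lower of all genes.

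**Figure D5:**
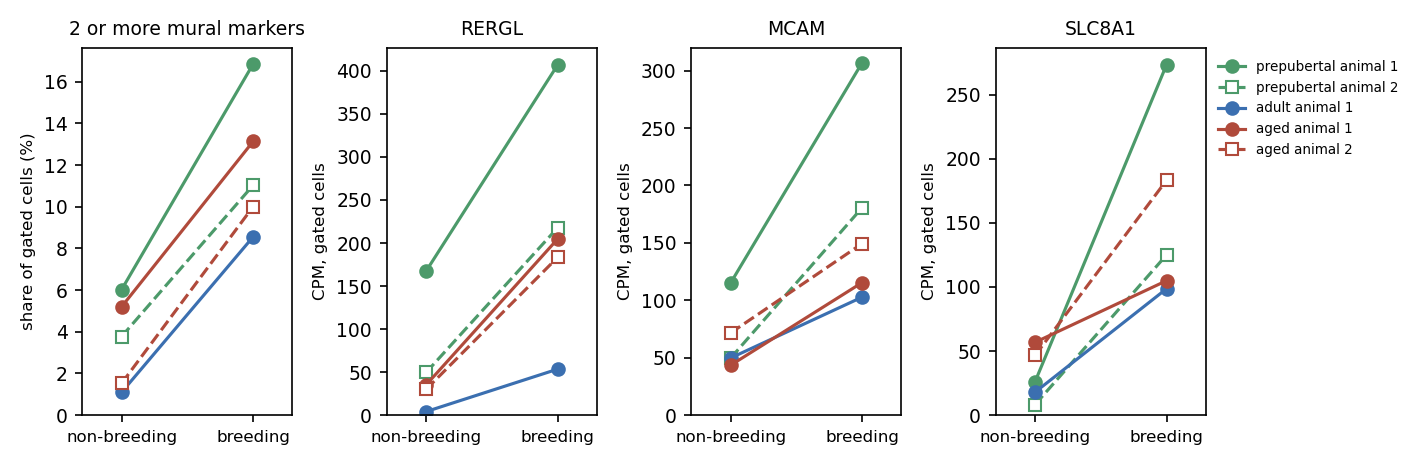
Share of gated cells with at least 2 of RGS5, NOTCH3, MCAM and RERGL (left, y axis in %) and CPM of RERGL, MCAM and SLC8A1 in the gated cells (other panels, y axes), in the non-breeding and breeding library (x axis) of the 5 animals with both, joined by lines. Every line for the share, RERGL, MCAM and SLC8A1 runs upwards.

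Cells with at least 2 of RGS5, NOTCH3, MCAM and RERGL numbered 127 of 2403 (5.29%). They made up 6.02% and 3.77% of the chosen cells of prepubertal animals 1 and 2 outside the breeding season and 16.8% and 11.03% during it. In adult animal 1 the share was 1.099% and then 8.55%, and in aged animals 1 and 2 it was 5.20% and 1.53% in the non-breeding season and 13.1% and 10.0% in the breeding season. The share was higher in the breeding season in 5 of 5 animals, by 1.91 ± 0.78 (SD) on the log2 scale, and the exact two-sided sign-flip test gave p = 0.0625, the smallest value that 5 pairs allow. This measure was chosen after the data were seen. Among the subset of these cells with at least 5 marker UMIs the difference was 1.63. As numbers, these cells went from 5 and 2 to 16 and 15 in the prepubertal animals, from 4 to 13 in adult animal 1, and from 39 and 7 to 13 and 9 in the aged animals, so in aged animal 1 the share was higher while the number was lower. The summed vascular list, which holds the same 4 genes and is no separate support, stood at 2.40 to 7.58 UMIs per 10000 in the non-breeding and 9.03 to 14.6 in the breeding libraries. Genes of other cells also moved with season. The summed Sertoli list held 6.496 to 21.5 UMIs per 10000 of the chosen cells in the non-breeding and 2.26 to 6.33 in the breeding libraries, which do not overlap. Of its 7 tested genes 4 were lower at an unadjusted p under 0.05 over all ages, beside 3.9% of all genes. In adult animal 1, the one adult with chosen cells in both seasons, the summed Sertoli list went from 21.5 to 3.95 UMIs per 10000. Its summed spermatid list went from 5.82 to 91.2, which is a single animal without a replicate at that age. The spermatid sum was lower in the breeding season in prepubertal animal 1 (2.14 to 0.27). The part of Sertoli and spermatid genes in the vascular result was not tested.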

How the data were processed

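Testis cells were profiled by droplet-based 10x Genomics single-cell RNA sequencing. Reads had been aligned by the authors to Mmul_10 (Ensembl genes) with Cell Ranger 9.0.0, and the deposited values are unnormalized UMI counts of genes in filtered barcodes. The sources used here do not say whether introns were counted. Of the deposited columns 0 were left unused.

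Barcodes were kept with 300 or more genes, up to 30000 UMIs and up to 3% of UMIs from 13 mitochondrial genes, and the cells were selected as stated in the report. The members and the gene lists were chosen with earlier results of these data known. Scrublet scores called doublets at 0.8% per 1000 cells. Sub-clusters used scanpy 1.11.5 (2000 variable genes, 20 components, 15 neighbours, Leiden resolution 0.5).

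Counts were summed per library (season) or animal (age) with at least 20 selected cells, filtered with filterByExpr, scaled with TMM and fitted in edgeR 4.0.16 (R 4.3.3) across all groups. DESeq2 1.42.0 was an alternative. Named genes were, per comparison, the 10 largest changes in each direction among genes with an adjusted p under 0.05, at least 20 UMIs and groups that do not overlap. Where fewer than 5 passed, the 5 lowest p values in each direction were named as not passing. From each list all passing members or the 2 most abundant were named. COL4A5, FOS, GDNF, the genes named among cells with all 3 markers and the single season genes of the vascular list were named after their values were seen.

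The same animal gave both testes, so season libraries are paired by animal, but the main season fits of genes did not use the pairing. Only the alternative with the animal as replicate block did. Deviations from group means correlated within animals with r = 0.109 (prepubertal) and 0.153 (aged). Replicates are animals, 2 per group except in the adult breeding group, which had a single library with chosen cells. Intervals and limits cover counting error only. The scripts were tested on simulated data.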

Additional observations from a re-analysis of the deposited data

Results flagged for a closer look

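The change of the share of chosen cells with season pointed in opposite directions at different ages. As a mean log2 difference, breeding minus non-breeding, it was 1.14 in the 2 prepubertal animals, -1.39 in the 2 adult animals and -2.09 in the 2 aged animals, and both prepubertal animals moved up while adult animal 1 and both aged animals moved down. The difference between ages was not tested. The value of adult animal 2 rests on 0 of 117 cells in its breeding library, so its direction is not known (adult animal 1 alone stood at -1.28), and with cells thinned to 1000 UMIs its log2 difference was 0.34. Among barcodes without AMH, the share in 3 of the 4 aged libraries was not above every background measured in them. Without the AMH criterion the share was higher in the breeding season in 1 of 6 animals, prepubertal animal 2 (1.03), while prepubertal animal 1 stood at -0.21.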

How the results depend on the processing

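The share of chosen cells kept the sign of its season difference under every alternative, from -1.15 without the AMH criterion (p = 0.0938, exact sign-flip test) to -0.31 with all 3 markers, and from -1.25 to -0.51 when an animal was left out. For the mural-marked share, leaving out an animal gave 1.68 to 2.07.

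For season, counts of genes past the threshold, 0 in each age as reported, were in adults 83 with no filter on low counts, 253 with all 3 markers, 944 with the replicate block, and 0 to 483 with a library left out (483 without the non-breeding library of animal 2). In aged animals they were 1 with DESeq2, 14 with no filter, 21 with the block and 0 to 2 with a library left out (2 without the non-breeding library of animal 2). Before puberty they were 27 with DESeq2, 209 with no filter, 188 with the block and 0 to 135 with a library left out (135 without the non-breeding library of animal 2). Over all ages they were 16 with DESeq2, 91 with no filter, 2 with all 3 markers, 1 with at least 5 marker UMIs, 0 with the block and 0 to 3 with a library left out (1 without the non-breeding library of prepubertal animal 1, 3 without that of aged animal 2). The cause was not tested. Leaving out germ-rich cells could not be fitted for season in adult and aged animals. Over all ages it left 2 breeding libraries, both prepubertal, and 5 non-breeding ones, so the season difference rested on prepubertal animals only.

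For adult against prepubertal animals, 1353 genes became 2446 with no filter, 397 without predicted doublets, 0 without germ-rich cells (1779 at an unadjusted p under 0.05, with fewer cells) and 253 to 1753 with an animal left out (253 without prepubertal animal 2, 596 without adult animal 2). Scaling with the size factors of DESeq2 moved the median of all genes from 0.21 to 0.05 and the share of higher genes among those that passed from 83.4% to 73.6%, and with all 3 markers this share was 74.8%. For aged against adult animals, 0 genes became 5 with DESeq2, 144 with no filter, 1053 with all 3 markers, 112 with at least 5 marker UMIs and 0 to 7 with an animal left out (7 without aged animal 2).

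Of the named genes, none that passed changed direction. DCN, which had not passed, went from 0.10 to -0.049 with size factors of DESeq2, -0.029 without mural-marked cells, -0.14 without germ-rich cells and -0.37 without prepubertal animal 2 (-0.37 to 0.76 with an animal left out). TIMP1 became 0.042 with at least 5 marker UMIs and PTCH1 -0.14 without adult animal 1 (-0.14 to 0.52 with an animal left out). The alternative with at least 5 marker UMIs was added after the data were seen. In data simulated for adult against prepubertal animals, with 9601 genes, 86% and 59.6% of 4-fold increases and decreases were recovered, and 100% and 90.5% of 16-fold ones, while smaller changes were not simulated. Every simulated gene had the same spread (dispersion 0.069), and the mixture of cells did not change with age. The recovery in the real data, where both can differ, is therefore not known from these values.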
